A study of Mus musculus with 2 samples.

Results

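The collagen genes are the genes of the mouse whose symbol in the deposited gene table has the form Col, a number, a and a number, such as Col1a1. The rule takes 44 of the 32589 listed genes and uses no measured value. The study measured RNA in single cells of the hypertrophied left ventricle 6 weeks after transverse aortic constriction (TAC), an operation that narrows the aorta so that the ventricle pumps against a raised pressure. There are 2 groups with 1 library each, wild-type mice and p53 knockout mice, and both groups underwent TAC. Each library came from 3 hearts mixed together, so the spread between animals cannot be measured and no test between the groups was possible. The kind of knockout, the strain, the age and the sex of the animals are not given in the labels, and the cells are labelled as cardiomyocytes although they hold many classes.

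Collagens are proteins of 3 chains wound into a triple helix, secreted into the extracellular matrix, and each chain has its own gene. Fibrillar collagens give tissue its tensile strength, type IV collagens form the sheets of basement membranes, and further types decorate fibrils or form beaded filaments, nets and membrane-bound proteins. In the heart, fibroblasts are known as the main source of fibrillar collagen, whose accumulation under pressure overload is called fibrosis.

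Collagen genes can lie in pairs that share a promoter, and the type IV genes are the known example. Col4a1 (chromosome 8, 11198423 to 11312826, minus strand, mm10) and Col4a2 (chromosome 8, 11312805 to 11449287, plus strand) run away from each other, and their annotated ends overlap by 22 bases. The windows below run from 250 bases before to 50 bases after the RefSeq start site (GRCm38.p6), on each gene's own strand, 5′ to 3′. They are shown for this pair and for 3 of the genes with the highest levels in fibroblast-like cells. Capitals mark matches, on either strand, to the motif CCAAT (written ATTGG on the other strand), to the motif GGGCGG (written CCGCCC) or to the motif TATAAA (written TTTATA).
Col4a1 (chr8:11312777-11313076, minus strand): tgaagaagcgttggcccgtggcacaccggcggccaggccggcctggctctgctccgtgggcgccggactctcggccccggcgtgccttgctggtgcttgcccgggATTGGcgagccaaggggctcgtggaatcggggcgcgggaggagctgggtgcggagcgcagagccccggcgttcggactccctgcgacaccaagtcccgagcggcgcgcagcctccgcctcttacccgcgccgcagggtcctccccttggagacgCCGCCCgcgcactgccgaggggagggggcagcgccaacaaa
Col4a2 (chr8:11312555-11312854, plus strand): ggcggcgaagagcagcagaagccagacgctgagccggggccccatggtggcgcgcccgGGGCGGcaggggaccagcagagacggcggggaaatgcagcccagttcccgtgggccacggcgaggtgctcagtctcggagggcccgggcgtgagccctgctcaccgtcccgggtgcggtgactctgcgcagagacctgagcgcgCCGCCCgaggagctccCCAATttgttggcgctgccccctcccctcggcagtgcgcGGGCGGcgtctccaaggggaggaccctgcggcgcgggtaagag
Col1a2 (chr6:4505368-4505667, plus strand): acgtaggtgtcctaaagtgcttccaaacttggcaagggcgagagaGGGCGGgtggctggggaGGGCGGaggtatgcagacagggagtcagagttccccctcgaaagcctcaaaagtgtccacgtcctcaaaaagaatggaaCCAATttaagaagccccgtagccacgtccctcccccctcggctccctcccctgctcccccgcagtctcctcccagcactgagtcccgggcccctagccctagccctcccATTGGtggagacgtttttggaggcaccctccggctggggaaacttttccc
Col3a1 (chr1:45311288-45311587, plus strand): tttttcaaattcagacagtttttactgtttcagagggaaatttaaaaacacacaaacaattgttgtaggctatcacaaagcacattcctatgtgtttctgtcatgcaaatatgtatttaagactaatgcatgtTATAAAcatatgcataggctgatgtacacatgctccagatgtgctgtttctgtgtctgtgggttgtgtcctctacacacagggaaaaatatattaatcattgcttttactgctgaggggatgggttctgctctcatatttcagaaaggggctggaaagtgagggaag
Col8a1 (chr16:57754688-57754987, minus strand): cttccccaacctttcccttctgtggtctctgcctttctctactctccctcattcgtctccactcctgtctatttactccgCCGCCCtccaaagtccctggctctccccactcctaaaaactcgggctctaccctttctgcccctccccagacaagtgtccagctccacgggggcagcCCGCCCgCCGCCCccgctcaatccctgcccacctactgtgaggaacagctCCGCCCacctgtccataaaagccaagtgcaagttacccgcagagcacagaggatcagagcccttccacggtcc
The Col4a1 and Col4a2 windows share 78 bases, read on opposite strands. Of the 44 collagen genes, 35 had a promoter window, with 38 windows in all. GGGCGG was found in 23 of these 38 windows (60.5%), against 35.7% of the 32851 windows of all genes in that table. CCAAT was found in 13 collagen windows (34.2%), against 37.4% of all. TATAAA was found in 5 (13.2%), against 13.6% of all. A match describes the letters only and is not a binding site.

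The 2 libraries held 18897913 and 20918824 unique molecular identifiers (UMIs, each standing for 1 captured RNA molecule). The first value of each pair in this text belongs to the library labelled wild-type and the second to the library labelled p53 knockout. Filters left 14764 and 9298 cells with 936 and 1569 UMIs in the median cell, and 105 barcodes occurred in both libraries. Trp53, which encodes p53, was not lower under the knockout label, with 38.9 CPM (counts per 1000000 UMIs of nuclear-encoded genes; 95% interval 35.9 to 42.0) and 54.7 CPM (51.4 to 58.1). A 3′ tag outside a deleted part would not show a deletion. Xist, a transcript of the inactive X chromosome, stood at 2.38 and 929 CPM, and 4 Y-linked genes together at 539 and 7.34 CPM, so the libraries differ in sex. The effects of sex and of the genotype label cannot be told apart. All intervals are exact 95% intervals for counting error only.

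Cells were grouped with no collagen gene among the clustering genes or markers, so the collagen levels of a class did not help to define it. Of the classes, 10 had at least 50 cells in each library. They are called by the cell type whose markers they carry, such as fibroblast-like. The fibroblast-like class held 21.2% and 21.4% of the cells, and cardiomyocyte-like cells made up 32.7% and 9.44%. Over all kept cells, therefore, a collagen level also moves with the mix of classes.

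Every one of the 44 collagen genes had at least 1 UMI in the kept cells. In at least 1 of the 10 classes, 29 of them had 100 UMIs or more over both libraries, and these are the genes described here. The count in the best class was 155 UMIs for the lowest of the 29 and 67 for the highest of the other 15. Those 15 genes, Col2a1, Col11a2, Col24a1, Col6a4, Col6a5, Col7a1, Col9a1, Col9a2, Col9a3, Col10a1, Col17a1, Col19a1, Col22a1, Col26a1 and Col28a1, together had 1255 of the 159758 collagen UMIs. A UMI stands for a molecule and not for a length of transcript, but genes can be captured with different efficiency, so ratios between genes are compared only between libraries or classes.

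Collagen RNA was higher under the knockout label. All collagens together took 0.287% and 0.608% of nuclear-encoded UMIs, or 2871 CPM (2845 to 2897) and 6077 CPM (6042 to 6113). The log2 ratio of the second library over the first was 1.08 (1.07 to 1.10). The fibrillar types led this difference, with 1017 and 2739 CPM, and their share of all collagen UMIs was 35.4% and 45.1%. Basement membrane collagens, at 920.4 and 1502 CPM, made up 32.1% and 24.7% of collagen UMIs. Of the 42 collagen genes with at least 20 UMIs, 25 were at least 2-fold higher and 1 at least 2-fold lower. Of all 18693 genes at that minimum, 11.9% were 2-fold higher and 10.8% 2-fold lower. The median log2 ratio was 1.14 over the collagens and 0.05 over all genes. A gene that reached the minimum only through the library where it is high had to differ, so these counts describe the measured genes and not all 44.

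**Figure D1:**
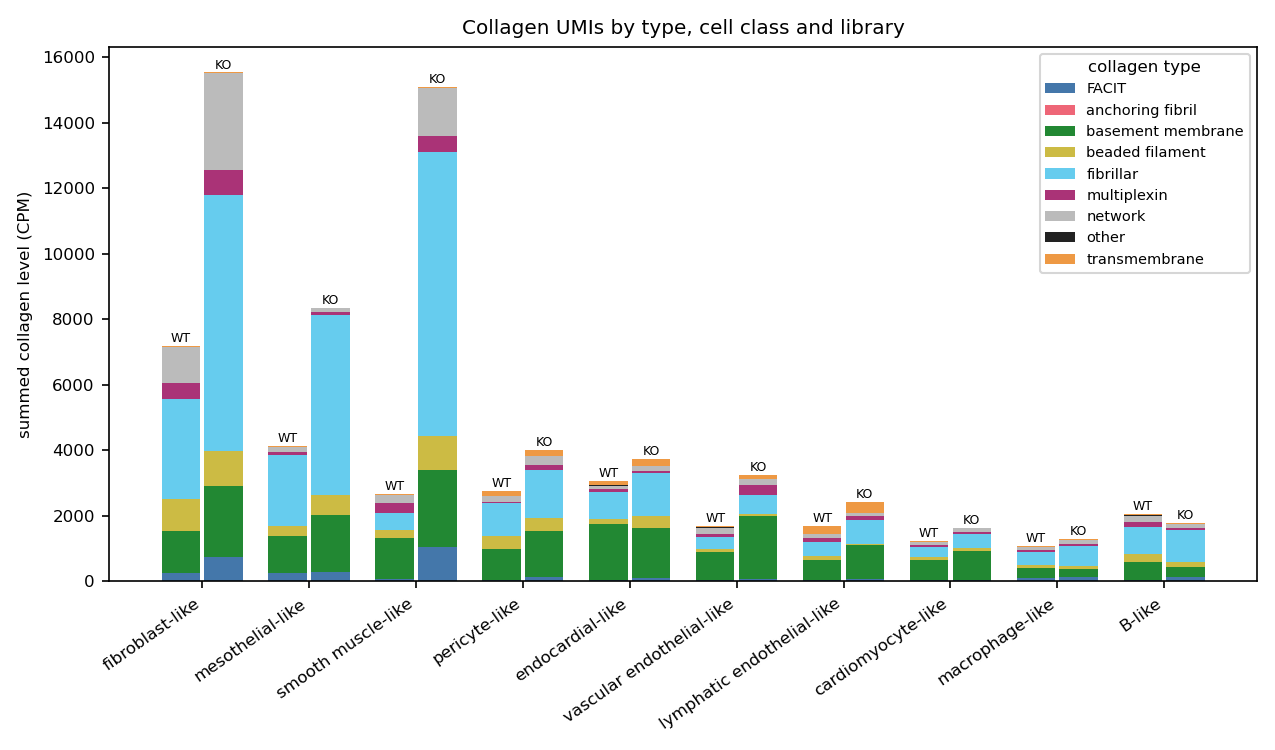
Summed collagen level in CPM (vertical axis, from 0) in the 10 classes with at least 50 cells per library, as 1 bar for each library (WT, wild-type; KO, labelled p53 knockout), with colours for the collagen type. The fibroblast-like bars reach 7193 and 15542 CPM, and the basement membrane part is the largest one in the vascular endothelial-like bars.

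Fibroblast-like cells had the highest collagen level in both libraries, at 7193 CPM (7104 to 7284) and 15542 CPM (15422 to 15662), giving a log2 ratio of 1.11 (1.09 to 1.13). Mesothelial-like cells, which line the surface of the heart, followed in the library labelled wild-type with 4146 CPM and stood at 8352 CPM in the other. Smooth muscle-like cells stood at 2668 CPM in 54 cells and 15099 CPM in 98 cells. Those values mark the widest gap between libraries among the classes, on 134 UMIs in the smaller sum. Endocardial-like cells, of the inner lining, had 3076 and 3722 CPM, and pericyte-like cells, which wrap capillaries, had 2762 and 3998 CPM. Vascular endothelial-like cells had 1686 and 3246 CPM, and lymphatic endothelial-like cells 1687 and 2433 CPM.

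The collagen level of a class that should lack collagen RNA was taken as the background in these droplet data. B-like cells had 2042 CPM (1750.0 to 2369) and 1788 CPM (1640.4 to 1946). T or NK-like cells, a further class that should lack it, had 1441.5 CPM (1103 to 1852) on 40 cells and 1098 CPM (952 to 1259) on 135. In the second library 1 B-like cell held 42 of its 500 thinned UMIs in collagens. Cardiomyocyte-like cells, at 1238 and 1639 CPM, and macrophage-like cells, at 1087 and 1289.5 CPM, were at or below the B-like level in both libraries, but above the T or NK-like level in the second. Of the collagens measured in macrophage-like cells, 2 of 21 were at least 2-fold higher in the library labelled p53 knockout and 3 lower, with 6.98% and 11.2% of all genes there. Vascular and lymphatic endothelial-like cells were below the B-like level in the library labelled wild-type and above it in the other. In the second library the lymphatic endothelial-like cell with the most held 56 of its 500 thinned UMIs in collagens. Whether a summed level in cardiomyocyte-like or macrophage-like cells exceeds background thus depends on the class taken as background, and it is not read as expression.

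Fibrillar collagens carried most of the difference in fibroblast-like cells. Their sum was 3075 and 7816 CPM, giving a log2 ratio of 1.35 (1.31 to 1.38), and their share of the class's collagen UMIs was 42.8% and 50.3%. Of the 35 collagen genes with at least 20 UMIs in this class, 19 were at least 2-fold higher in the library labelled p53 knockout and 2 at least 2-fold lower. The same shares over the 13697 genes measured there were 6.48% and 11.4%. The median log2 ratio was 1.05 for the collagens and -0.10 for all genes.

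Type I collagen, the main collagen of cardiac scar, is built from chains of Col1a1 and Col1a2. Col1a1 (chromosome 11, 94936224 to 94953042) had 397 and 1689.9 CPM, giving a log2 ratio of 2.09 (2.0 to 2.17). Col1a2, whose promoter window above holds 2 CCAAT and 2 GGGCGG matches, had 773 and 1856 CPM, giving a log2 ratio of 1.26 (1.20 to 1.33). The 2 chains did not differ by the same factor. For each UMI of Col1a2 there were 0.514 UMIs of Col1a1 (0.481 to 0.549) in the first library and 0.910 (0.881 to 0.940) in the second. This ratio was also higher in the second library in every other class compared, in some of them on few UMIs. In B-like cells it was 0.133 (0.0341 to 0.378) and 1.10 (0.817 to 1.49), so the shift is not particular to fibroblast-like cells. Type III collagen, the more compliant fibril former encoded by Col3a1, had 895 and 1963 CPM (log2 ratio 1.13, 1.07 to 1.19). The ratio of Col3a1 to Col1a1 UMIs was thus 2.25 (2.11 to 2.40) and 1.16 (1.12 to 1.20). It too was lower in the second library in every other class compared, with 4.25 (1.39 to 17.4) and 0.531 (0.371 to 0.754) in B-like cells.

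Type V collagen starts fibrils and limits their width. Its chains stood at 288 and 575 CPM for Col5a1, 549 and 1286 CPM for Col5a2, and 72.6 and 151 CPM for Col5a3, with log2 ratios of 1.0, 1.23 and 1.05. Over the class the 3 chain genes of type V therefore lay close to 2-fold, less far apart than the type I pair. Within the 2 clusters described below this did not hold. The log2 ratios of Col5a1, Col5a2 and Col5a3 were 0.44, 0.14 and 1.43 in cluster 0 and 0.87, 0.50 and 1.11 in cluster 4. Those of Col1a1 and Col1a2 were 1.0 and 0.05 in cluster 0 and 0.92 and 0.50 in cluster 4. The intervals of the 3 type V genes overlapped in cluster 4. Col27a1, a further fibrillar gene, had 90.6 and 191 CPM, giving a log2 ratio of 1.07. Col11a1, best known as a chain of cartilage fibrils, had 14 UMIs in the first library and 270 UMIs in the second, giving a log2 ratio of 3.95 (3.23 to 4.89). Its values by cluster, given below, lay closer together. Col2a1, the main collagen of cartilage, had 0 and 61 UMIs.

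**Figure D2:**
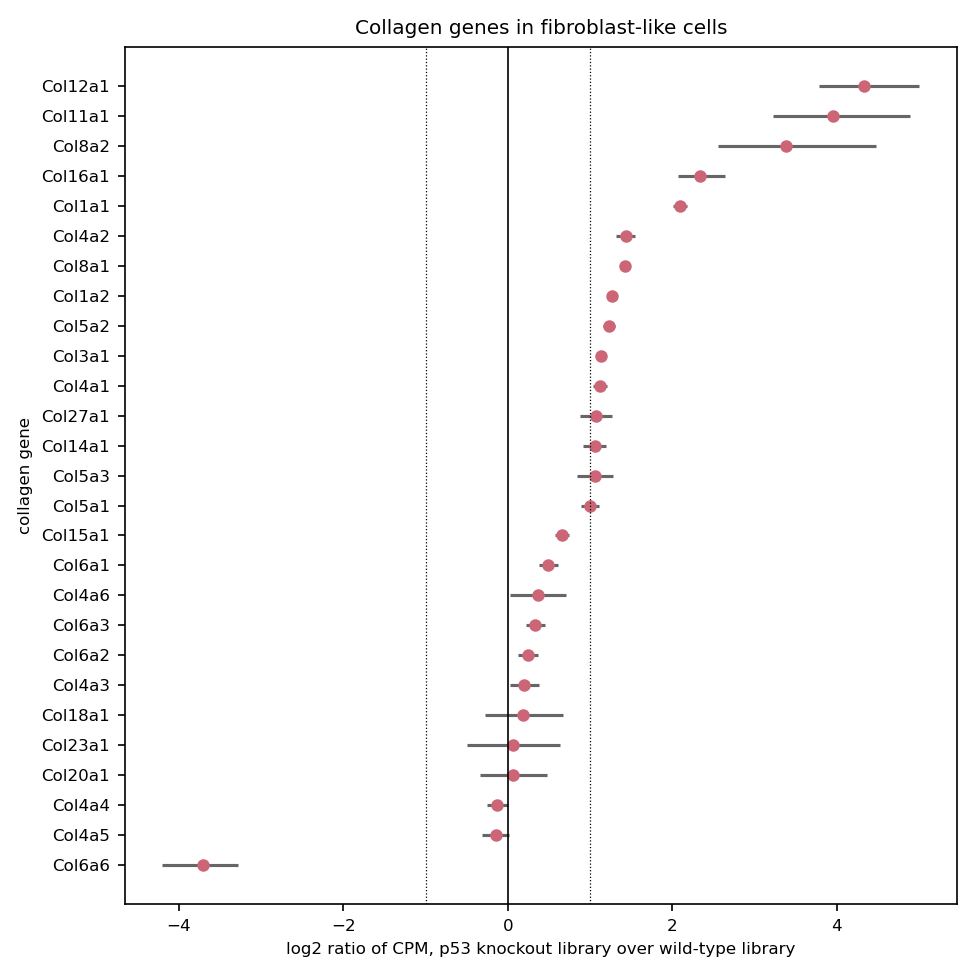
Log2 ratio of CPM in fibroblast-like cells, p53 knockout label over wild-type label (horizontal axis). The vertical axis holds the 27 collagen genes described that had at least 100 UMIs over both libraries in this class. Points are ratios, lines are 95% counting intervals, and dotted lines mark 2-fold. Col12a1 at 4.34 lies farthest to the right and Col6a6 at -3.71 farthest to the left.

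The collagens that sit on fibril surfaces (fibril-associated collagens, FACIT) had a summed level of 250.3 and 732 CPM, giving a log2 ratio of 1.55 (1.44 to 1.66). Col12a1 had the largest ratio of the 29 genes in this class, with 25 and 621 UMIs, 7.29 and 149.9 CPM, giving a log2 ratio of 4.34 (3.79 to 5.0). Among these genes Col16a1 came next with 35 and 178 CPM (2.34, 2.06 to 2.64). Col14a1 had 174 and 362 CPM (1.05, 0.92 to 1.19). Col20a1 differed little, at 26.5 and 27.8 CPM (0.06, -0.34 to 0.48). The family thus ranged from no measurable difference to the widest one among the 29 genes described.

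Network-forming collagens were almost wholly Col8a1, a short-chain collagen known from vessel walls and from the eye's Descemet membrane. Col8a1 was the most abundant collagen of the class by UMIs in both libraries, at 1085 and 2910.2 CPM, giving a log2 ratio of 1.42 (1.37 to 1.48). Its promoter window above holds 4 GGGCGG matches. Col8a2, which encodes the partner chain, had 11 and 144 UMIs (log2 ratio 3.38, 2.56 to 4.47). Its values by cluster are given below as well.

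Basement membrane collagens of fibroblast-like cells divided by gene pair. Col4a1 had 444 and 962 CPM (log2 ratio 1.11, 1.03 to 1.20) and Col4a2 had 225 and 606 CPM (1.43, 1.31 to 1.55). These are the chains of the common basement membrane trimer. Over the class the other 4 genes stood closer to 0 on the log2 scale. Col4a3 had 134 and 154 CPM (0.20), Col4a4 277 and 254 CPM (-0.13), Col4a5 172 and 155 CPM (-0.15), and Col4a6 35 and 45.1 CPM (0.37). Col4a5 was lower in the second library within both clusters described below. Its log2 ratio was -0.77 (-1.60 to -0.12) in cluster 0 and -0.97 (-1.37 to -0.51) in cluster 4. Col15a1, a multiplexin of the basement membrane zone, had 478 and 752 CPM (0.65, 0.57 to 0.74), and Col18a1, whose protein releases endostatin, 19.2 and 22 CPM (0.19).

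Type VI collagen forms beaded microfilaments between fibrils and basement membranes. Its main chains were less far apart than the fibrillar ones, with 272 and 382 CPM for Col6a1 (log2 ratio 0.49), 268 and 319 CPM for Col6a2 (0.25), and 276 and 348 CPM for Col6a3 (0.33). Col6a6, an alternative to the third chain, went the other way. It had 494 UMIs in the first library and 45 in the second, or 144 and 10.9 CPM, giving a log2 ratio of -3.71 (-4.20 to -3.29). Beaded filament collagens therefore took 13.3% of the class's collagen UMIs in the first library and 6.83% in the second. Transmembrane collagens were rare in these cells, at 27.4 and 22.7 CPM in sum. Among them Col25a1 was the second gene past 2-fold lower, with 34 and 10 UMIs, while Col23a1 had 14.3 and 15 CPM and Col13a1 had 2.33 and 3.62 CPM.

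The fibroblast-like class was made of different clusters in the 2 libraries. Cluster 0, led by Abca6, Lvrn and Abca8a, held 3017 and 146 cells. Cluster 4, led by Cilp, Nox4 and Postn, genes known from activated fibroblasts, held 120 and 1844 cells. Collagen was higher in cluster 4 than in cluster 0 within each library, by a log2 ratio of 0.86 (0.80 to 0.93) in the first library and 0.84 (0.77 to 0.91) in the second. Between libraries and within a cluster the difference was smaller than over the class. Cluster 0 had 6918.5 and 8853 CPM (log2 ratio 0.36, 0.28 to 0.43) and cluster 4 had 12563 and 15847 CPM (0.33, 0.27 to 0.40). Of 27 collagens measured in cluster 0, 5 were at least 2-fold higher and 2 lower, with 9.27% and 16.6% of all genes there. In cluster 4 the counts were 9 and 2 of 32, with 12.5% and 14.5% of all genes. Which share of the class difference comes with the clusters and which with the label cannot be told apart.

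Single collagen genes differed in how they followed cluster and library. Col3a1 and Col8a1 followed the cluster. Col3a1 had 848 and 797 CPM in cluster 0 and 1802 and 2016 CPM in cluster 4, and Col8a1 had 1004 and 1173 CPM in cluster 0 and 2677 and 2989.5 CPM in cluster 4. Col1a1 differed by both cluster and library, with 371 and 741 CPM in cluster 0 and 910.2 and 1733 CPM in cluster 4. Col4a1 and Col4a2 differed by library more than by cluster. Col4a1 had 449 and 879.7 CPM in cluster 0 and 353 and 965 CPM in cluster 4, and Col4a2 had 227 and 498 CPM in cluster 0 and 180 and 611 CPM in cluster 4. Col6a6 was lower in cluster 4 and lower under the knockout label, at 148 and 38.7 CPM in cluster 0 and 59.9 and 9.59 CPM in cluster 4. Col12a1 showed the opposite order, at 5.51 and 22.1 CPM in cluster 0 and 41.9 and 156 CPM in cluster 4. Col11a1 had 8 and 0 UMIs in cluster 0 and 6 and 270 in cluster 4, where its log2 ratio was 0.81 (-0.22 to 2.38). Col8a2 had 6 and 2 UMIs in cluster 0 and 5 and 142 in cluster 4, where its log2 ratio was 0.13 (-1.0 to 1.90). Both of these cluster 4 ratios were below those over the class. Between libraries Col3a1 had a log2 ratio of -0.09 in cluster 0, below its value of 1.13 over the class. Other genes had ratios of opposite sign in the 2 clusters, with 0.60 and -0.37 for Col6a1, 0.38 and -0.84 for Col6a2, and 1.35 and -1.34 for Col4a6 in clusters 0 and 4.

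**Figure D3:**
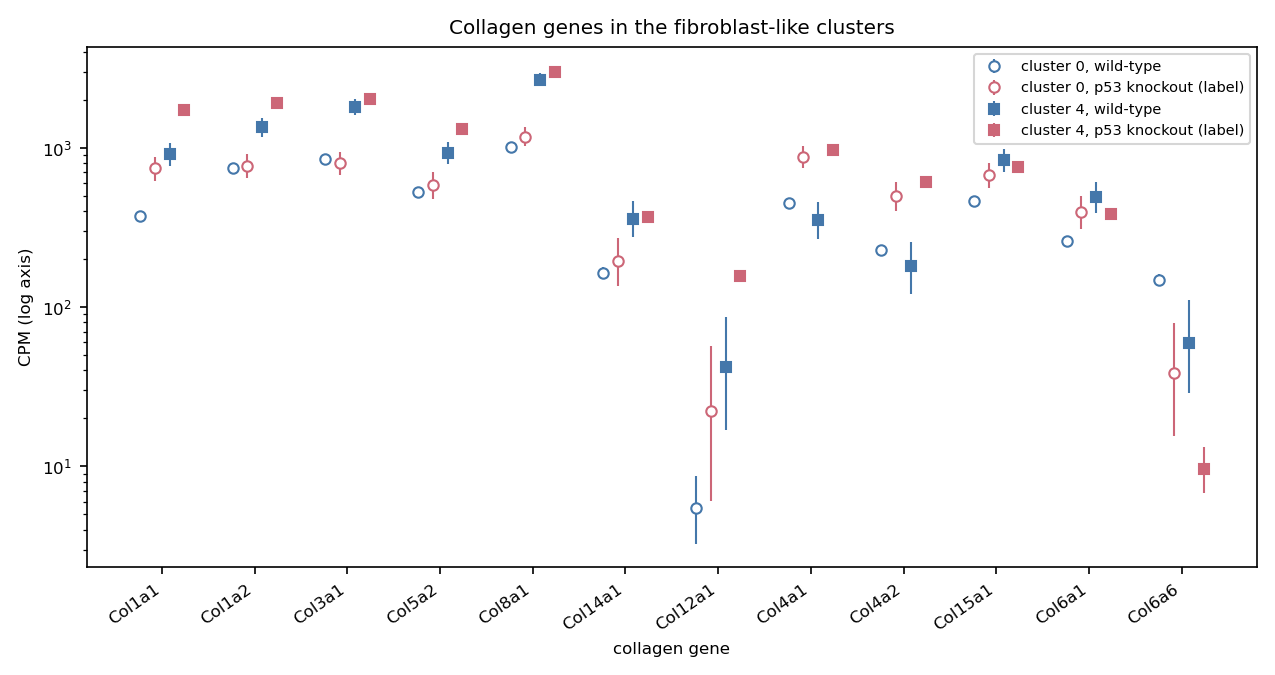
Level in CPM (log axis) of collagen genes in the 2 fibroblast-like clusters of each library, with 95% counting intervals; colours stand for the library, open points for cluster 0 and filled points for cluster 4. Col3a1 and Col8a1 separate by cluster, Col4a1 and Col4a2 by library, and Col1a1 by both.

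The difference was also present cell by cell. With every fibroblast-like cell thinned to 500 UMIs, the median cell held 3 and 5 collagen UMIs, with quartiles of 1 to 4 and 3 to 9. Cells with 10 or more collagen UMIs were 3.35% (2.75 to 4.04) and 20.6% (18.8 to 22.4). Cells with none were 11% and 2.96%. The upper end was longest in the library labelled p53 knockout, where 1 cell held 91 of its 500 UMIs in collagens, against a highest value of 19 in the other. Within cluster 4 the cells with 10 or more were 18.3% and 21.7%, and within cluster 0 they were 2.75% and 6.16%.

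For Col1a1 the share of thinned fibroblast-like cells with a UMI was 11.9% and 35.2%, and in B-like cells 1.18% and 4.17%. Without thinning the fibroblast-like shares were 22.2% and 62.8%, where the median cell had 994 and 1756 UMIs. The fibroblast-like share exceeded the B-like share in both libraries. Other cell types' markers moved between the libraries too. The 10 cardiomyocyte markers summed to 8554 and 1936 CPM in fibroblast-like cells, 0 of 10 higher in the library labelled p53 knockout, and none was at 0. The 9 endocardial markers summed to 2661.5 and 4298 CPM, and the class's own 10 markers to 22230 and 18762 CPM. Their part in the collagen difference was not tested.

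Genes that act on collagen after transcription were read in the same class, from lists of genes by their role. Of the 21 chaperones and enzymes of collagen maturation, 3 were 2-fold higher and none lower, with 6.48% and 11.4% of all genes, and their median log2 ratio was 0.22. Serpinh1, the collagen chaperone of the endoplasmic reticulum, had 264 and 271 CPM, and P4ha1, a prolyl hydroxylase subunit, 197 and 209.5 CPM. Plod2, which hydroxylates lysines of the collagen ends, had 137 and 281 CPM (log2 ratio 1.04, 0.88 to 1.20), and P3h2, a prolyl 3-hydroxylase, 19.5 and 76.5 CPM (1.96). Most of the maturation machinery was therefore closer to 0 than the collagens were.

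The oxidases that crosslink collagen differed by more in their largest ratios. Lox had 23.3 and 254 CPM (3.44, 3.12 to 3.79), Loxl3 56.2 and 246 CPM (2.13), Loxl2 153 and 425 CPM (1.47) and Loxl1 315 and 499.9 CPM (0.67). Thus 3 of the 4 measured were 2-fold higher, beside 6.48% of all genes. Among 8 measured proteinases that trim procollagen and their enhancers, 1 was 2-fold higher and 2 lower, beside 6.48% and 11.4% of all genes. Adamts2, which removes the amino-terminal end, was the higher one at 196 and 435 CPM (1.15). Tll2, a tolloid-like proteinase, was lower at 78.4 and 12.6 CPM (-2.63). Of 7 measured collagen-binding proteoglycans, 3 were 2-fold higher, beside 6.48% of all genes, among them Bgn at 570.4 and 1656 CPM (1.54), while Lum had 522 and 531 CPM and Dcn 5629 and 4624 CPM. Of 9 measured collagen receptors, 2 were 2-fold higher, beside the same 6.48%, among them Ddr1 at 23.6 and 77.2 CPM, whereas Ddr2 had 449 and 339 CPM (-0.41).

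Genes other than collagens that mark activated fibroblasts were mostly higher as well. Of 10 on that list, 9 were 2-fold higher and 1 lower, beside 6.48% and 11.4% of all genes, with a median log2 ratio of 3.85. Postn, a matrix protein of activated fibroblasts, had 101 and 1433 CPM and Comp, a matrix protein that binds collagen, 10.2 and 655 CPM, whereas Fap was lower at 354 and 160.3 CPM (-1.14). Postn had 41.7 and 122 CPM in cluster 0 and 1257.5 and 1492 CPM in cluster 4. It is among the genes that lead cluster 4. Unlike the collagens, Postn was not kept out of the clustering genes, so this split is no independent evidence.

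In vascular endothelial-like cells basement membrane collagens were the largest type and stood above their B-like sum of 528 and 316 CPM. They made up 51.2% and 59.0% of the class's collagen UMIs. Their sum was 863 CPM (827 to 901) and 1914 CPM (1867 to 1962), giving a log2 ratio of 1.15. Some collagens of other types, given below, also stood above their B-like level in the second library. Of 29 collagens measured, 10 were at least 2-fold higher and 4 lower, with 6.31% and 12.7% of all genes. Col4a1 had 381 and 1053 CPM (1.47, 1.36 to 1.57) and Col4a2 had 306 and 799 CPM (1.38). B-like cells had 211 and 136 CPM of Col4a1. All 3 clusters of the class had more Col4a1 in the second library, at 401 and 816 CPM in cluster 1, 464 and 1098.5 CPM in cluster 7, and 176 and 1033 CPM in cluster 11. Cluster 1 held 2385 and 319 cells, cluster 7 held 240 and 1127, and cluster 11 held 207 and 532.

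Among the other endothelial collagens were the multiplexins, Col13a1, Col8a1 and Col5a2. Col8a1 had 517 and 564 UMIs. Its level was 166 and 282 CPM in cluster 1, 407 and 158 CPM in cluster 7, and 303 and 171 CPM in cluster 11. All network collagens together had 207 and 174 CPM, against 211 and 116 CPM in B-like cells. Col5a2 had 321 and 599 UMIs. Its level was 113 and 139 CPM in cluster 1, 169 and 92.4 CPM in cluster 7, and 193 and 334 CPM in cluster 11. Col18a1 had 12.8 and 93.0 CPM (log2 ratio 2.84, 2.33 to 3.43). Within clusters its ratio was 0.80 (-1.81 to 2.44) in cluster 1, 0.51 (-0.29 to 1.56) in cluster 7 and 3.03 (1.92 to 4.81) in cluster 11. Col15a1 had 59.7 and 208 CPM (1.80, 1.54 to 2.06), and the first value lay below the 141 CPM of B-like cells, which had 73.1 CPM in the second library. Both are collagens of the basement membrane zone that carry sugar chains. Col13a1, a transmembrane collagen of cell adhesion, had 25.7 and 89.3 CPM (1.79), with 107 and 215 CPM in cluster 11 and 16 and 15.9 CPM in cluster 1. Col4a4 had 72.2 and 24.1 CPM, at the B-like values of 70.4 and 23.3 CPM on 6 and 7 UMIs, and it is read as background, as is Col4a3 at 50.1 and 14.3 CPM against 35.2 and 13.3 CPM. Col4a5 had 45.7 and 19.5 CPM, with log2 ratios of 0.07 in cluster 1 and -0.02 in cluster 7 and 63.2 and 17.8 CPM in cluster 11. Its B-like values were 0 and 19.9 CPM, on 0 and 6 UMIs. Cardiomyocyte markers in this class summed to 10634 and 2277 CPM and fibroblast markers to 2128 and 1045 CPM, and their part was not tested.

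Endocardial-like cells had the highest levels of Col4a3 and Col4a4 among the 10 classes in both libraries. These are chains of the trimer known from the kidney glomerulus, and their genes on chromosome 1 lie 71 bases apart. Col4a4 had 775 and 504 CPM (log2 ratio -0.62, -0.72 to -0.52) and Col4a3 had 492 and 243 CPM (-1.01, -1.15 to -0.88). Of 28 collagens measured, 12 were 2-fold higher and 4 lower, with 6.51% and 11% of all genes, and Col4a3 was among the 4. Col4a5, the third chain of that trimer, went the other way at 95.9 and 196 CPM (1.03, 0.79 to 1.28).

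These values also differ by cluster. Cluster 3 held 1599 and 414 cells and cluster 8 held 15 and 1243, so cluster 8 gives a level in the library labelled p53 knockout only. Col4a4 had 769 and 265 CPM in cluster 3 and 553 CPM in cluster 8. Col4a5 had 93.7 and 59.0 CPM in cluster 3, a lower value in the second library, and 224 CPM in cluster 8. The direction of Col4a5 over the class therefore rests on cluster 8. Col4a1 had 228 and 472 CPM in cluster 3 and 316 CPM in cluster 8. The collagen sum of cluster 3 was 3059 and 2891 CPM, giving a log2 ratio of -0.08 (-0.16 to -0.01), against 0.27 (0.23 to 0.32) for the class.

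Other types in endocardial-like cells were led by Col5a2, at 470.3 and 577 CPM (0.30), with far fewer UMIs of Col5a1, 0.0977 and 0.162 for each UMI of Col5a2. In fibroblast-like cells that ratio was 0.525 and 0.448. Col6a3 had 31.4 and 146 CPM (2.20, 1.82 to 2.64), with 31.8 and 75.2 CPM (1.24) in cluster 3, and the ratio of Col6a3 to Col6a2 UMIs was 0.848 (0.583 to 1.23) and 2.29 (1.97 to 2.66). Col23a1, a transmembrane collagen, had 84.6 and 190.0 CPM (1.16), but 83.5 and 103 CPM in cluster 3 (0.31, -0.13 to 0.73). It was also the leading transmembrane collagen of lymphatic endothelial-like cells at 198 and 329.8 CPM (0.72). Those lymphatic endothelial-like cells had 4 of 15 measured collagens 2-fold higher and 3 lower, with 8.84% and 9.03% of all genes. Col25a1, a transmembrane collagen known from brain and motor nerves, had 53.3 and 8.28 CPM (-2.67), with 53.4 and 26.5 CPM in cluster 3 (-0.98, -1.82 to -0.27), short of 2-fold. Col12a1 had 0 and 39 UMIs. The 10 cardiomyocyte markers summed to 8791 and 1952 CPM in this class, 0 of 10 higher in the second library. The 10 fibroblast markers summed to 3513.5 and 3225 CPM, 2 of them higher. The 9 adipocyte markers summed to 987 and 3476 CPM, 6 of them higher, with 7 and 9 detected. The 8 smooth muscle markers summed to 80.2 and 262 CPM, 6 of them higher, with 7 and 8 detected. Their part in the collagen differences was not tested.

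In cardiomyocyte-like cells Col4a5 stood farthest above its B-like level of 0 and 19.9 CPM. It had 249 and 381 CPM (log2 ratio 0.61, 0.49 to 0.73), and this class held 59.9% of all Col4a5 UMIs in the first library and 29.6% in the second. The thinned share of cells with a Col4a5 UMI was 8.89% and 12.3%, against 0 of 85 and 1.25% of B-like cells. The 4 clusters had 230.2 and 450 CPM in cluster 2, 302 and 305 CPM in cluster 6, 73.6 and 92.0 CPM in the mitochondria-rich cluster 9, and 469 and 487 CPM in cluster 14. Clusters 2 and 6 held most of the class in the first library and clusters 14 and 9 in the second, so the class ratio also moves with its clusters. Col4a6, the X-linked neighbour that lies 1308 bases from Col4a5, had 29 and 20 UMIs in this class. Smooth muscle-like cells had Col4a5 at a like level, 279 and 297 CPM, on 14 and 67 UMIs, as did mesothelial-like cells, at 273 and 371 CPM on 60 and 362 UMIs. Col4a1 had 124 and 209.9 CPM in cardiomyocyte-like cells and Col4a2 158 and 224 CPM, above the B-like values (211 and 136 CPM, 188 and 106 CPM) in the second library only. The ratio of Col4a1 to Dcn UMIs was 0.272 and 0.815 there, against 0.0789 and 0.208 in fibroblast-like cells. In B-like cells it was 0.220 (0.124 to 0.369) and 0.387 (0.263 to 0.560), so the first cardiomyocyte-like value lay within the B-like interval.

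Col3a1 and Col1a1 of cardiomyocyte-like cells stood in nearly the ratio to a fibroblast gene that fibroblast-like cells had. The ratio of Col3a1 to Dcn, a fibroblast proteoglycan gene, was 0.162 and 0.416 there, close to 0.159 and 0.424 in fibroblast-like cells. The Col1a1 to Dcn ratio was 0.0657 and 0.390, against 0.0706 and 0.365. Other fibrillar genes differed more, with a Col5a2 to Dcn ratio of 0.137 against 0.0976 in the first library and a Col1a2 to Dcn ratio of 0.476 against 0.401 in the second. For Col4a5 the ratio to Dcn was 0.544 and 1.48, against 0.0305 and 0.0335 in fibroblast-like cells. Of 28 measured collagens, 2 were 2-fold higher and 2 lower, with 4.26% and 15.5% of all genes, and the median log2 ratio was 0.01. Scaling by the median gene instead of by the total shifted this class by -0.22 on the log2 scale, which brought its collagen sum from a log2 ratio of 0.40 to 0.62.

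**Figure D4:**
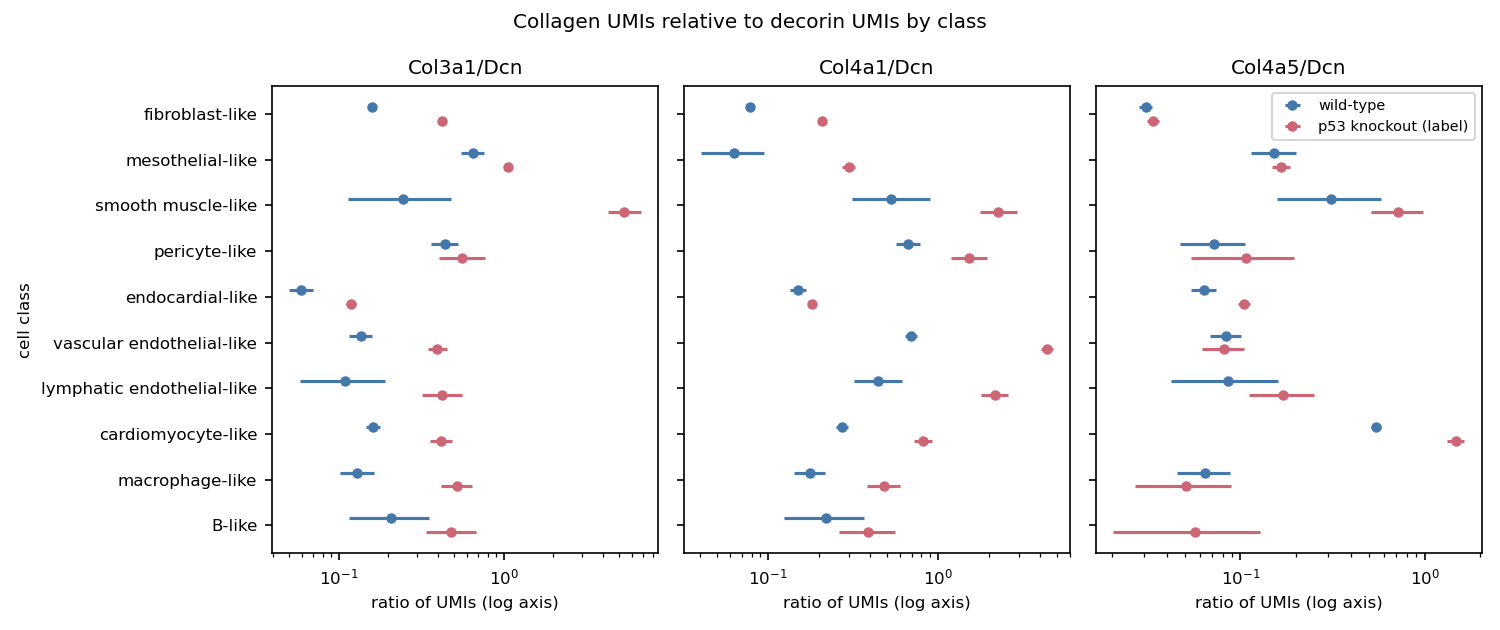
UMIs of Col3a1, Col4a1 and Col4a5 for each UMI of Dcn (horizontal axes, log scale) by cell class, in both libraries, with 95% counting intervals. Col3a1 sits at nearly the same ratio in cardiomyocyte-like and fibroblast-like cells of a library (0.162 and 0.159, 0.416 and 0.424), whereas Col4a5 is highest in cardiomyocyte-like cells and Col4a1 in vascular endothelial-like cells.

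Mesothelial-like cells were a fibrillar class as well. Fibrillar collagens made up 52.3% and 65.9% of their collagen UMIs, at 2168 and 5501 CPM (log2 ratio 1.34, 1.21 to 1.48). Of 22 collagens measured, 10 were 2-fold higher and 3 lower, with 12.4% and 13.3% of all genes. Col3a1 had 1164 and 2372 CPM (1.02), Col1a2 had 623 and 1963 CPM (1.65) and Col1a1 had 114 and 572 CPM (2.30). These cells used less Col1a1 for their Col3a1 than fibroblast-like cells did, since the ratio of Col3a1 to Col1a1 UMIs was 10.2 (6.78 to 16.1) and 4.15 (3.78 to 4.56). Col4a1 had 114 and 669 CPM (2.53), Col4a6 had 36.4 and 146 CPM (1.93), and Col4a4 had 368 and 65.6 CPM (-2.49). The ratio of Col6a3 to Col6a2 UMIs was 0.652 and 0.0578, opposite in direction to the endocardial-like one. In these cells the 10 cardiomyocyte markers summed to 9883 and 1761 CPM, 0 of 10 higher in the second library. The 10 fibroblast markers summed to 3964 and 3205 CPM, 3 of them higher. The 9 endocardial markers summed to 2909.5 and 4187 CPM, 3 of them higher, and the 9 Schwann cell markers to 882 and 207 CPM, 1 of them higher, with 6 detected in each library. Their part in the collagen differences was not tested.

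Pericyte-like cells were marked by Col5a3 and Col25a1. Col5a3 had 143 and 434 CPM (log2 ratio 1.60, 1.24 to 1.98), above the 72.6 and 151 CPM of fibroblast-like cells. Col25a1 had 139 and 159 CPM (0.21, -0.30 to 0.68), whereas endocardial-like cells had 53.3 and 8.28 CPM. Basement membrane genes were higher, with 335 and 491 CPM for Col4a1 (0.55) and 272 and 439 CPM for Col4a2 (0.69). Of 20 collagens measured, 4 were 2-fold higher and 2 lower, with 5.57% and 11.7% of all genes. Col3a1 had 222 and 182 CPM, with an interval of the log2 ratio of -0.73 to 0.14. Within this class its own 9 markers summed to 12749 and 17541 CPM (0.46, 0.41 to 0.51), 8 of them higher in the second library. The 10 cardiomyocyte markers summed to 8889 and 2503 CPM, 0 of 10 higher. The 10 fibroblast markers summed to 3371 and 2495 CPM, 3 of them higher. Their part in the collagen differences was not tested.

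Smooth muscle-like cells of the library labelled p53 knockout held fibrillar collagen at a level near that of fibroblast-like cells. Among these 98 cells the median cell held 4 of its 500 thinned UMIs in collagens, and the cell with the most held 70. Col1a1 had 3 and 521 UMIs, Col3a1 11 and 507, Col8a1 13 and 328 and Col14a1 0 and 169. Of 19 collagens measured, 14 were 2-fold higher and 0 lower, with 18.9% and 14.1% of all genes. The ratio of Col3a1 to Dcn was 0.244 (0.114 to 0.480) and 5.39 (4.32 to 6.80). In fibroblast-like cells it was 0.159 (0.153 to 0.165) and 0.424 (0.414 to 0.436). The 2 classes thus differed in this ratio by more than counting error in the second library only. Smooth muscle markers summed to 13000 and 7777 CPM, fibroblast markers to 2767 and 2117 CPM, and Schwann cell markers to 99.5 and 1435 CPM, with 2 and 5 of 9 detected. Their part in the collagen difference was not tested.

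**Figure D5:**
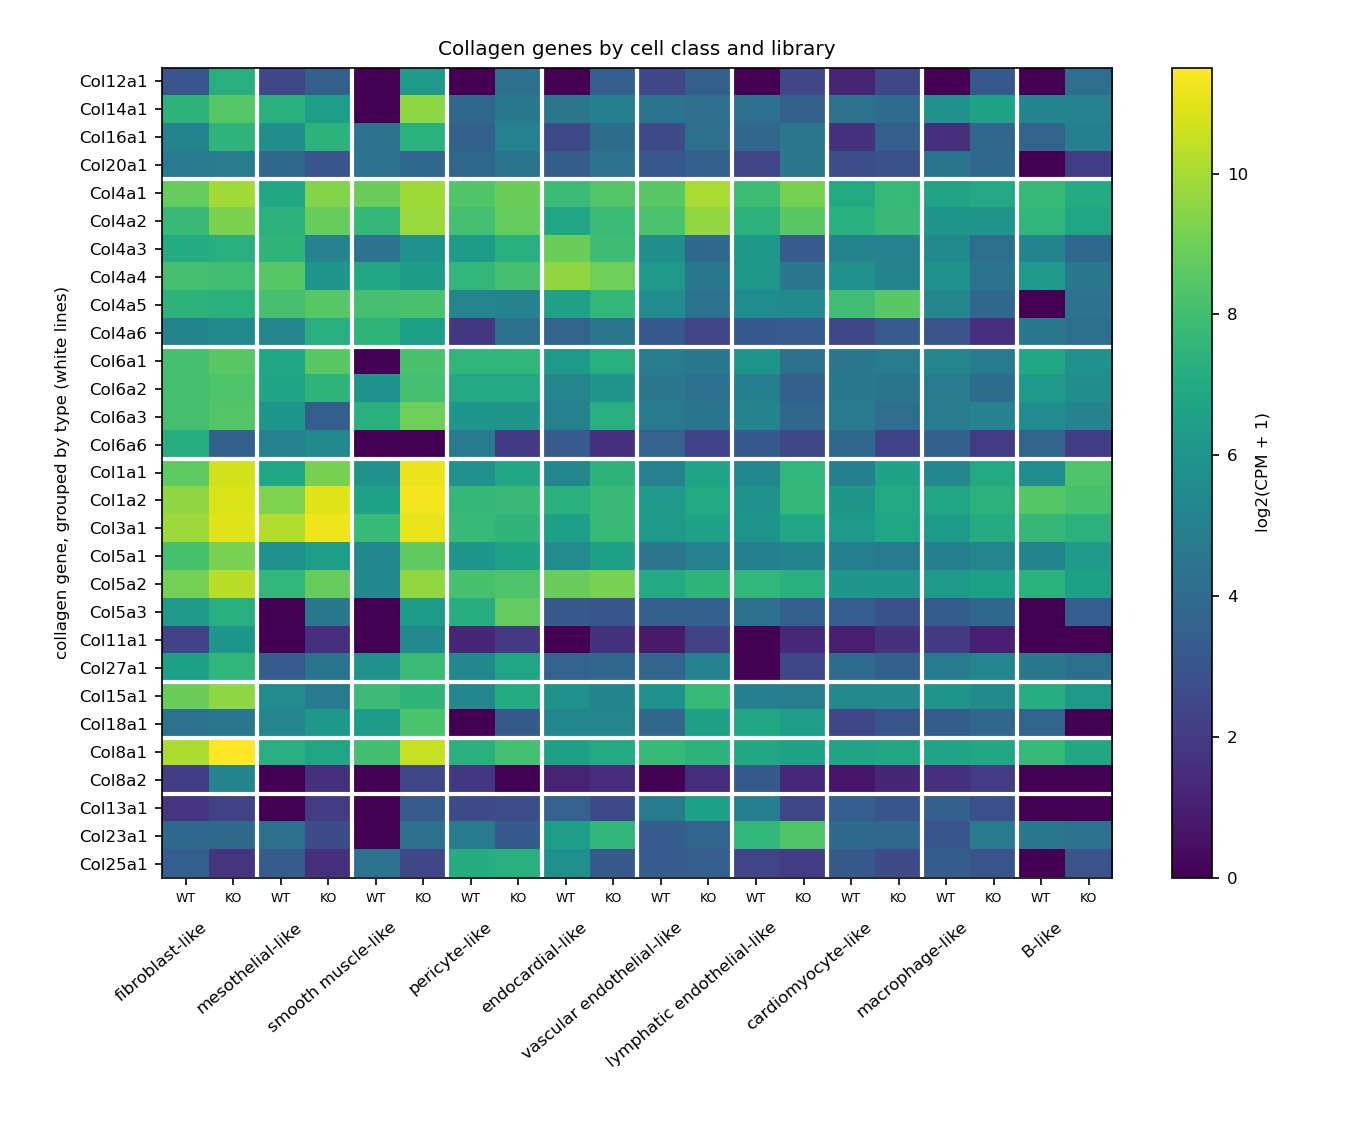
Level of the 29 collagen genes described (rows, grouped by type) as log2(CPM + 1) in the 10 cell classes, with the library labelled wild-type left and the library labelled p53 knockout right within each class. Fibrillar genes are bright in fibroblast-like and mesothelial-like cells and in smooth muscle-like cells of the second library, Col4a3 and Col4a4 in endocardial-like cells and Col4a5 in cardiomyocyte-like, mesothelial-like and smooth muscle-like cells.

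Paired genes thus kept together to different degrees. Col4a1 and Col4a2, which share the promoter region printed above, had ratios of Col4a1 to Col4a2 UMIs of 0.790 and 0.939 in cardiomyocyte-like cells and of 2.04 and 1.52 in endocardial-like cells. Between the libraries both were higher in CPM in fibroblast-like, vascular and lymphatic endothelial-like, endocardial-like, cardiomyocyte-like, pericyte-like, smooth muscle-like and mesothelial-like cells. In B-like cells both were lower. In macrophage-like cells Col4a1 was higher, on 110 and 123 UMIs, and Col4a2 slightly lower, on 69 and 64 UMIs. Over the 20 combinations of class and library, Col4a2 was the gene most like Col4a1 among 9959 genes with at least 500 UMIs, with a Pearson correlation of log2 levels of 0.91, followed by Ppic at 0.85 and Igfbp7 at 0.83. For Col1a1 the most like were Ccn5 and Col16a1, both at 0.91, then Col1a2 and Col12a1, both at 0.88. These 20 points share 2 libraries and their depth, so the correlations are descriptions. Whether the counting used the strand is not given in the sources used here, so reads of Col4a1 and Col4a2 in their shared 22 bases, and of genes with an overlapping gene on the other strand such as Col12a1, Col14a1, Col15a1 and Col18a1, may not be told apart.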

How the data were processed

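The authors deposited UMI counts per gene and barcode. Per the submitters' processing notes they used Cell Ranger and Seurat on build mm10; the versions are not given in the sources used here. A 3′ droplet kit and total RNA extraction are named in the labels' protocols; cells and nuclei are not told apart there. Symbols are those of the deposited gene tables, in which 32445 of 32589 identifiers, including the 44 collagens, matched GENCODE vM21.

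Cells with at least 200 genes and at most 50% mitochondrial UMIs were kept. Scrublet's automatic threshold marked 0 and 3 barcodes, under the planned minimum, so the 8% of cells with the highest scores were removed from each library, which does not show that they were doublets. Both libraries were clustered together with scanpy 1.11.5 (2000 variable genes without collagens, 30 principal components, 15 neighbours, Leiden resolution 1 with leidenalg 0.10.2) and clusters named from marker lists without collagens. Cluster 13 met the naming thresholds for a neutrophil list, but its name was withheld after it was seen to be led by macrophage genes.

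UMIs were summed per class and library and scaled to CPM of nuclear-encoded UMIs. Log2 ratios had 0.5 UMI added to each sum. Poisson, binomial and conditional binomial intervals are exact, at 95%, from scipy 1.17.1, and cover counting error only. With 1 library per group no test was possible. A gene was measured in a class with at least 20 UMIs over both libraries, and collagens with at least 100 UMIs in a class were described. The calculation was tested on simulated data. The collagens, lists and rules were chosen with earlier results of these data known.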

Additional observations from a re-analysis of the deposited data

Results flagged for a closer look

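Col4a5 differed in direction between 2 endothelial classes. Its log2 ratio of the library labelled p53 knockout to the other was 1.03 (0.79 to 1.28) in endocardial-like cells and -1.22 (-1.69 to -0.77) in vascular endothelial-like cells. The difference was not tested, since each group has 1 library. Within endocardial cluster 3 the gene had 93.7 and 59.0 CPM, and in vascular clusters 1 and 7 the ratios were 0.07 and -0.02. Cluster 11 had 63.2 and 17.8 CPM. B-like cells had 0 and 19.9 CPM of this gene, so the vascular value of the second library, 19.5 CPM, was at that level.

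Collagen UMIs were also present in 2 unnamed clusters that lay outside the comparisons, because they came almost wholly from the library labelled p53 knockout. Cluster 13, with 486 cells of that library and 8 of the other, had 1368 CPM of all collagens. Cluster 16, with 326 and 3 cells, had 4155 CPM. In that library B-like cells had 1788 CPM and T or NK-like cells 1098 CPM. The value of cluster 13 lay between these backgrounds, and that of cluster 16 above both.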

How the results depend on the processing

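Each value is the log2 ratio of summed collagen unless stated. The fibroblast-like value, 1.11 as reported, was 0.99 with at least 500 genes per cell, 1.04 without doublet removal, 1.02 at Leiden resolution 2, 1.18 with median-of-ratios scaling, 1.05 with cells thinned to 500 UMIs and 1.03 as a mean over cells, and, in alternatives chosen after seeing the data, 0.36 in cluster 0 alone and 0.33 in cluster 4 alone. The 19 collagens at least 2-fold higher became 5 in cluster 0 and 9 in cluster 4, and the 2 lower became 1 with a minimum of 100 UMIs. Cardiomyocyte-like cells, 0.40 as reported, gave 0.48 with at least 500 genes, 0.62 with median-of-ratios scaling, and 0.49, 0.26, 0.32 and 0.53 in clusters 2, 6, 9 and 14. Vascular endothelial-like cells, 0.95 as reported, gave 1.04 with at least 500 genes, 1.0 without doublet removal, 0.82 thinned, 0.84 as a mean over cells, and 0.83, 0.72 and 1.35 in clusters 1, 7 and 11. Endocardial-like cells, 0.27 as reported, gave 0.19 at resolution 2, 0.21 with collagens among the clustering genes, 0.33 with median-of-ratios scaling and -0.081 in cluster 3 alone. Macrophage-like cells, 0.25 as reported, gave -0.0021 with at least 500 genes, -0.0092 with at most 20% mitochondrial UMIs, 0.40 without doublet removal, 0.070 at resolution 2, 0.044 with collagens among the clustering genes and 0.37 thinned. Col3a1 in fibroblast-like cells, 1.13 as reported, was -0.086 in cluster 0 alone. The cause of these differences was not tested, beyond the fewer cells that a single cluster holds. Of the 27 collagens with at least 100 UMIs in fibroblast-like cells, 11 to 15 were 2-fold higher under the settings other than single clusters. No paired analysis was possible because each group has 1 library and no test was made. Depth limits the classes under 100 cells, where sums rest on few UMIs, and no alternative replaces the animals that were mixed.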
